A study of Brassica juncea with 4 samples.

Results

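The microRNAs (miRNAs) of cytoplasmic male sterile (CMS) floral buds of Brassica juncea were set against the cleavage of their targets in the same line. The members were every miRNA entry with a value in the deposited CMS table, 288 of 289 listed, which held 248 distinct mature sequences once identical ones were joined. The CMS line carries the cytoplasm of B. rapa, brought in by an interspecific cross and kept by repeated backcrossing to fertile B. juncea, and buds of whole inflorescences of 6 flowering plants kept under long days were pooled for it. It had 1 small RNA library, which counts short RNAs, and 1 degradome library, which counts the 5′ ends of broken polyadenylated transcripts. With 1 pooled library per assay no test between replicates was possible, and nothing was compared with the maintainer fertile (MF) line. Intervals given below are exact (Clopper-Pearson) 95% binomial intervals, and they cover counting error only, since reads without molecular identifiers are not independent molecules.

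A plant miRNA is cut from a hairpin precursor in which both arms pair with each other. One arm, the guide, is usually kept in an Argonaute protein, while the other arm is mostly degraded. The guide pairs almost fully with a messenger RNA, which Argonaute cuts opposite the middle of the guide, and the downstream fragment can be read at its 5′ end in a degradome library. In flowers, families conserved across plants are known for silencing transcription factors of meristem, organ boundary, organ polarity and anther development, and proteins of auxin response.

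The CMS small RNA library held 105033 reads of these sequences, which was 3.29% (3.27 to 3.31) of its 3192676 mappable reads. Of the 248 sequences 173 had a read and 75 had none, and a count of 0 allows up to 3 reads, or 0.940 per 1000000 mappable reads. The degradome library held 4967302 reads mapped to Arabidopsis cDNA, so that 3 reads stood for 0.604 per 1000000. Arabidopsis (TAIR10) served as the reference for hairpins and transcripts, and reads of B. juncea gene copies that resemble the same Arabidopsis gene therefore could not be told apart.

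The sequences below carry the results that follow, written 5′ to 3′ as DNA with the seed (bases 2 to 8) in capitals. The first 5 were the most abundant, and they show how near miR319 stands to miR159 and miR165 to miR166.
miR319a/b: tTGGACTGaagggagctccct
miR159a: tTTGGATTgaagggagctcta
miR165a/b: tCGGACCAggcttcatccccc
miR160a/b/c: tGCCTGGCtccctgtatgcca
miR166a to g: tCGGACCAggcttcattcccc
The next 3 had at most 138 small RNA reads each but 126 to 1553 cleavage reads.
miR393a/b: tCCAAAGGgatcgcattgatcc
miR394a/b: tTGGCATTctgtccacctcc
miR403: tTAGATTCacgcacaaactcg
The last 5 are sets of near relatives that begin at a different base of the same target site, and they are compared where neighbouring cleavage sites are described.
miR156a to f: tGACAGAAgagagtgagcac
miR156h, 1 base longer at its 5′ end: tTGACAGAagaaagagagcac
miR171a: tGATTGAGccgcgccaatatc
miR171b/c: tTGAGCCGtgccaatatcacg
miR170, 1 base changed: tGTTTGAGccgtgtcaatatc
Among the guides of numbered families with at least 20 reads, the seed CGGACCA was shared by miR165 and miR166, and no other seed was found in more than 1 family.

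The miRNA reads of CMS buds were dominated by a single sequence. The sequence of miR319a and miR319b had 74029 reads, or 70.5% (70.2 to 70.8) of all miRNA reads, and miR159a followed with 5143 reads, or 4.90% (4.77 to 5.03). The next sequences were miR165a/b with 3961 reads, miR160a/b/c with 3493, miR166a to g with 3218 and a miR319c variant with 2859. Then came a miR894 variant with 1740 reads, miR858 with 1246, miR408 with 1140, miR171a with 916, the p3 arm of bra-MIR1885 with 818 and miR167a/b with 774. The list thus ran from families of organ polarity and growth to miR858 and miR408, with other-arm products among them. The remaining 8 of the 20 most abundant sequences had at most 549 reads. Guides among them were a variant of ptc-miR319i with 549 reads, miR390a/b with 473, miR164a/b with 423 and a miR159b variant with 235. Products named as other arms were MIR156b-p3 with 358 reads, peu-MIR2916-p3 and peu-MIR2916-p5 with 300 and 204, and MIR168a-p3. The sequences of peu-MIR2916 are the same stretch shifted by 1 base and so not opposite arms. MIR168a-p3 held 0.154% (0.131 to 0.180) of the miRNA reads, and a miR170 variant had exactly the same count. Beyond the leaders the counts were low: 9 sequences had at least 1000 reads, 27 at least 100 and 60 at least 20, while 97 had 1 to 9 reads and 41 had a single read. The median of the 173 sequences with a read was 7 reads.

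Summed by family, which is the number after miR in the name, 50 of 58 listed families had a read in CMS buds, 21 with at least 100 reads and 29 with 1 to 99. The order was miR319 with 77612 reads, miR159 with 5410, miR165 with 4022, miR160 with 3501, miR166 with 3359, miR894 with 1740, miR858 with 1285, miR408 with 1245, miR171 with 1026 and miR1885 with 907. These 10 families held 95.3% (95.2 to 95.4) of the miRNA reads, and 85.3% (84.9 to 85.7) of the reads outside miR319 were held by the 10 leaders that remained without it. The other families with at least 100 reads were miR167 with 896, miR390 with 566, miR2916 with 504, miR164 with 484, miR156 with 412, miR168 with 313, miR396 with 275, miR170 with 0.154% of the miRNA reads, miR394 with 138, miR172 with 121 and miR1103 with 105. The counts of miR1103 and of miR845, the next family with 95 reads, lay on either side of the limit of 100.

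**Figure D1:**
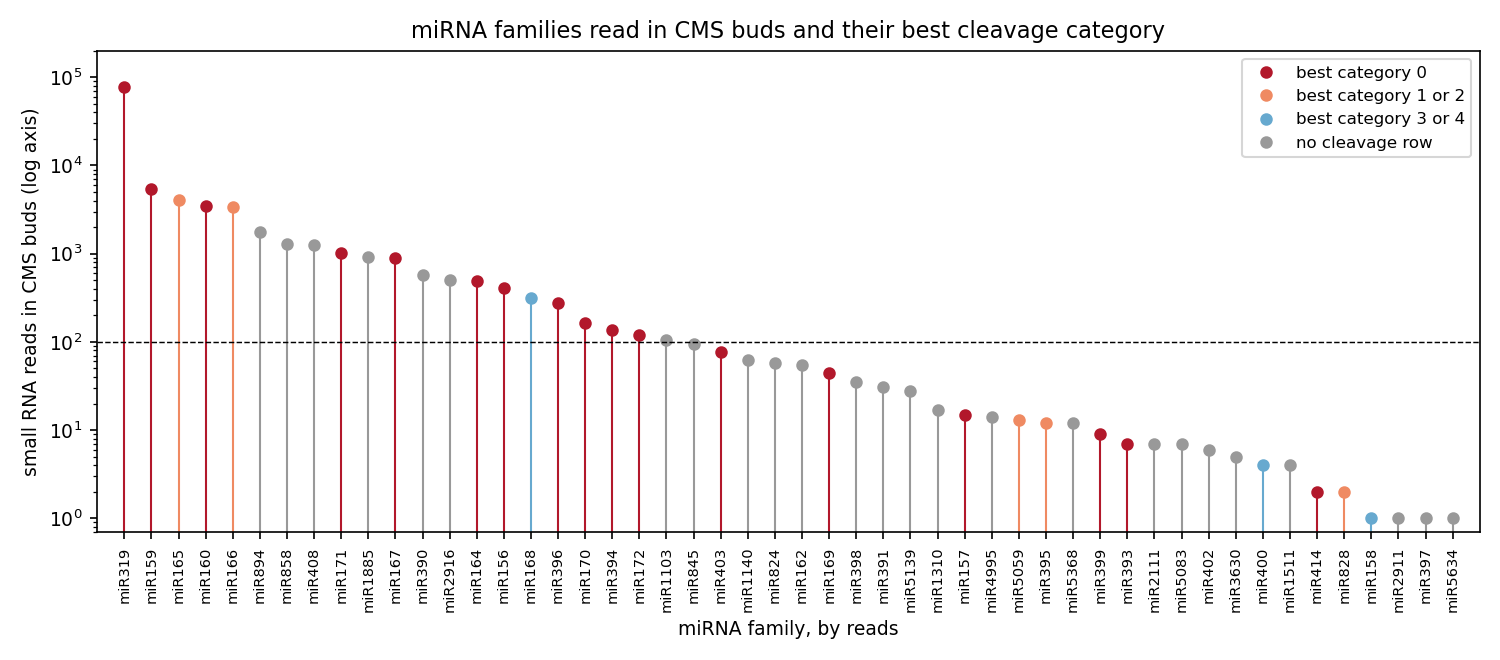
Small RNA reads in CMS buds (vertical log axis) of the 50 miRNA families with a read, ordered by reads, each point coloured by the lowest cleavage category of any of its sites in the CMS degradome, with a dashed line at 100 reads. miR319 stands at 77612 reads above miR159 at 5410, and grey points, families with no cleavage row, occur from miR894 at 1740 reads down to single reads.

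By role, 13 families were listed under floral and organ identity transcription factors. The list is broad and also holds families that target regulators of growth and phase change. All 13 were read and held 94227 reads, or 89.7% (89.5 to 89.9) of the miRNA reads, of which 77612 were miR319. The 4 auxin families held 4970 reads, or 4.73% (4.60 to 4.86), most of them from miR160. The 5 listed families of nutrient and copper supply had 1302 reads, or 1.24% (1.17 to 1.31), of which 1245 were miR408, a family known for silencing copper proteins. The 3 families that target the small RNA machinery itself, miR162, miR168 and miR403, had 443 reads, or 0.422% (0.383 to 0.463). Entries that resemble fragments of ribosomal or transfer RNA, such as miR894 and miR2916, made up 7 families and 2409 reads, or 2.29% (2.20 to 2.39).

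Guides were far more abundant than the other arms of their hairpins. Guide here means a product with a mature miR name, and the other arm is the product that the tables name p5 or p3. The guides include a few products marked with * in their names, the largest with 23 reads. Products named p5 or p3 include those of families with no guide listed, such as bra-MIR1885 and peu-MIR2916. Over the whole library 68 guide sequences held 101724 reads, or 96.8% (96.7 to 97.0), 88 sequences of other arms held 2983, or 2.84% (2.74 to 2.94), and 92 new candidates held 326, or 0.310% (0.278 to 0.346). A read was found for 63 of the guides, 54 of the other arms and 56 of the candidates, with medians of 28, 10 and 2 reads over the sequences read. A first base T, which is the U that plant AGO1 prefers at the 5′ end, was carried by 96.4% (96.3 to 96.5) of guide reads, 55.0% (53.2 to 56.8) of reads from other arms and 11.96% (8.65 to 15.99) of candidate reads. Of the other-arm reads with T, 818 were of bra-MIR1885-p3 and 300 of peu-MIR2916-p3. The 55.0% is therefore not a value for the other arms of listed guides.

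In 54 hairpins both arms were listed and 51 of them had a read. The guide exceeded the other arm in 40 of the 51 (78.4%), and in 30 of the 35 hairpins with at least 20 reads over both arms. Hairpins with the same guide sequence enter these counts with the same guide reads and are not separate observations. MIR156a, MIR156c, MIR156d and MIR156f, for example, each enter with the same 4 reads. Summed over these hairpins the guide share was 99.3% (99.2 to 99.3), a value in which a guide shared by several hairpins counts for each of them. It was 98.6% (98.5 to 98.7) with each sequence counted once and 94.4% (94.1 to 94.7) when miR319 was also left out. The guide share was 99.92% (99.90 to 99.94) in MIR319a (chr4:12352934-12353149, plus strand) with 74029 against 56 reads, and 98.5% (98.1 to 98.8) in MIR165a with 3961 against 61. Other arms were a larger part in MIR408 with 1140 against 105 reads, MIR171a with 916 against 93, MIR167a with 774 against 74 and MIR390a with 473 against 91. There the guide shares ran from 83.9% in MIR390a to 91.6% in MIR408. The arms of MIR166b (3218 against 103), MIR166d (3218 against 34) and MIR319c (2859 against 27) were again far apart, and MIR166b and MIR166d share their guide with the other miR166 hairpins. MIR319a, MIR165a, MIR167a and MIR390a likewise share their guides with MIR319b, MIR165b, MIR167b and MIR390b. For all hairpins with a shared guide, the guide count and guide share are upper limits.

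The guide did not lead in 11 hairpins. The widest gap was in MIR156b (chr4:15074899-15075081, plus strand), where the p3 arm had 358 reads and the guide 4, a guide share of 1.10% (0.302 to 2.80). Since MIR156a to f share 1 guide sequence, those 4 reads are the total for all of them. As a family, miR156 had 46 guide reads and 366 reads of other arms, so its place among the abundant families came from the p3 arm. In MIR168a (chr4:10578629-10578783, plus strand) the counts of both arms were nearly equal, with 151 guide reads of 313 over both arms. The interval of the guide share of 48.2% (42.6 to 53.9) held equality. MIR168b has the same guide sequence, so 151 is the most that MIR168a can have given, and its own guide share may be lower. Both pairs are shown here in full, since miR156 and miR168 are conserved families whose other arm was at least as abundant as the guide.
miR156b guide: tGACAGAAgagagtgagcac
MIR156b-p3: tgctcacctctctttctgtcagt
miR168a guide: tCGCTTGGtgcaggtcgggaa
MIR168a-p3: cccgccttgcatcaactgaat
The remaining cases rested on few reads. MIR169e had 1 guide read against 35, MIR824 had 25 against 33, MIR391 had 11 against 20, MIR171b had 8 against 9 and MIR156e had 4 against 8, and MIR169b, MIR169g, MIR169h and MIR169j had at most 3 reads per arm. Of the 11 hairpins, the interval of the guide share lay wholly below 50% in MIR156b and in MIR169e, where it ran from 0.0703 to 14.5%.

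**Figure D2:**
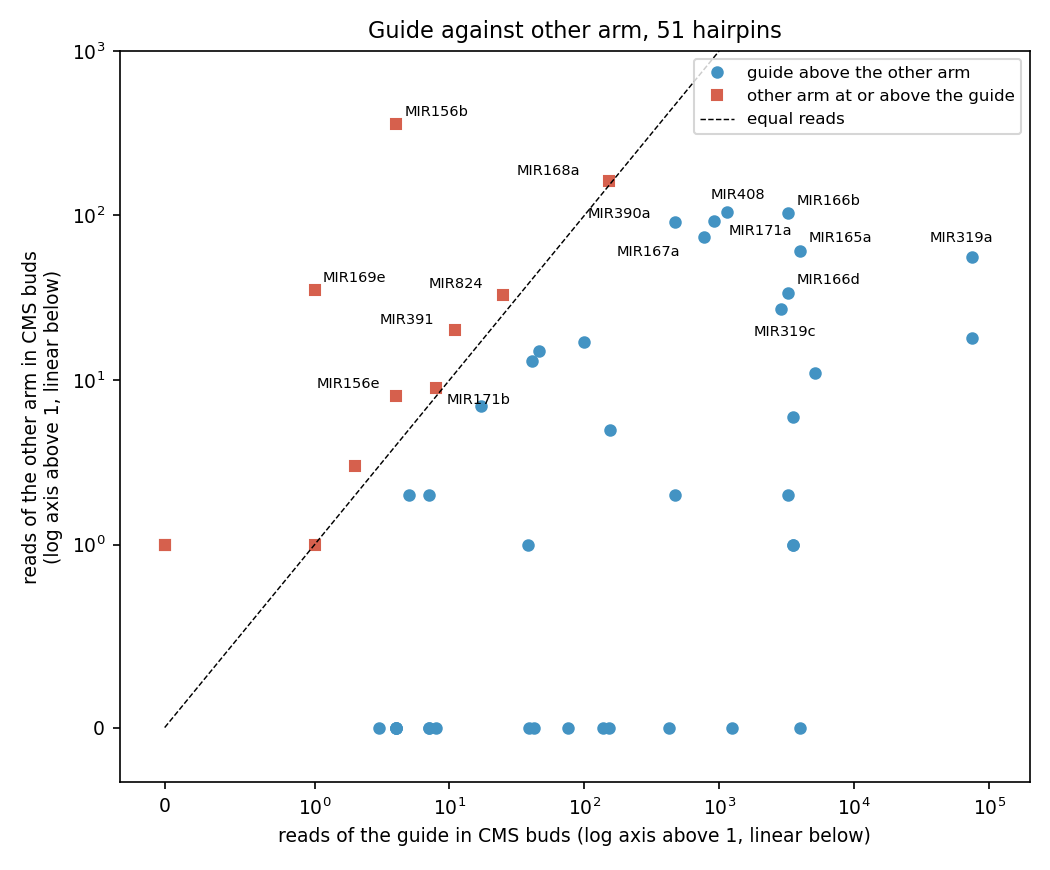
Reads of the guide (horizontal) against reads of the other arm (vertical) in CMS buds for the 51 hairpins with both arms listed and a read, on log axes that are linear between 0 and 1, with a dashed line of equal reads. Squares mark the 11 hairpins whose other arm was at or above the guide, led by MIR156b with 4 guide reads against 358, and 40 hairpins lie below the line.

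Cleavage was read from 768 deposited rows of the CMS degradome, each a miRNA name and a site on an Arabidopsis transcript. They covered 247 genes and 124 miRNA names, 27 of which had no value in the miRNA table and entered only by family. Sites carry a category from 0 to 4. In category 0 the site has the most reads of its transcript and is alone in that, in 1 it shares the maximum, in 2 it is above the median of the transcript, in 3 it is at or below the median, and in 4 it has 1 read. Of 236 pairs of a numbered family and a gene, 109 (46.2%) had a category 0 to 2 site and 41 (17.4%) a category 0 site.

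Among the 21 families with at least 100 small RNA reads, 13 (61.9%) had a category 0 to 2 site in CMS buds. The share was 9 of 29 (31%) among families with 1 to 99 reads, and 22 of 50 (44%) among all families read. For category 0 the counts were 11 of 21 (52.4%), 6 of 29 (20.7%) and 17 of 50 (34%). The 13 abundant families with such a site were miR319, miR159, miR165, miR160, miR166, miR171, miR167, miR164, miR156, miR396, miR170, miR394 and miR172. The other 8 were miR894, miR858, miR408, miR1885, miR390, miR2916, miR168 and miR1103, and 7 of these had no cleavage row at all. The exception, miR168, had a site in AGO1, the Argonaute that carries most plant miRNAs, with 2 reads in category 3. Among the families without a row, miR408 is known for targeting plantacyanin and laccases, miR858 for MYB factors and miR390 for the non-coding TAS3 RNA, and miR894, miR2916 and miR1103 were listed with entries that resemble ribosomal or transfer RNA. At the limit of 20 reads, 15 of 30 families had a category 0 to 2 site, and at 500 reads 7 of 13 did. CleaveLand, the program that called the sites, gave each a p-value. With only sites of a CleaveLand p under 0.05 counted, 11 of the 21 abundant families had a category 0 to 2 site. miR165 and miR166 were then no longer among them.

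The order of families by miRNA reads was not the order by cleavage reads. Cleavage reads of a family were summed over its genes, with each gene given by the transcript with most reads. They came to 4210 over all numbered families, with sites assigned to more than 1 family counted for each, and to 3399 with such families joined. A read that matches transcripts of several genes counts at each gene in both totals. The intervals of the shares of cleavage reads treat such repeated counts as separate reads and are therefore too narrow. The 10 families with most miRNA reads, which held 95.3% of those, held 5.77% (5.09 to 6.52) of the cleavage reads. miR319, first by miRNA reads, had 54 cleavage reads, or 1.28% (0.965 to 1.67), and was the eighth by raw cleavage reads. miR393 had 7 small RNA reads and 1553 cleavage reads, or 36.9% (35.4 to 38.4), the most of any family. miR156 and miR157, with 412 and 15 small RNA reads, had 735 and 734 cleavage reads, and miR156 alone held 17.5% (16.3 to 18.6). All but 1 read of miR156 came from sites shared with miR157. The exception was a category 4 site in AT4G38900, assigned to MIR156e-p3. With reads divided over the transcripts they match and 1 transcript taken per gene, miR393 still led with a signal of 829. On that scale miR394 had 225, miR414 had 142, miR403 had 126 and miR156 had 106. The value of miR156 leaves out the other transcripts listed for its targets SPL10 and SPL11, so its rank cannot be read from it. miR394 with 138 small RNA reads had 225 cleavage reads, or 5.34% (4.68 to 6.07), and miR403 with 76 had 126, or 2.99% (2.50 to 3.55).

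Across the 50 families with a read, Spearman's rank correlation between miRNA reads and cleavage reads was 0.27, and across the 173 sequences with a read it was 0.25. These are descriptions only, because all points share the same pair of libraries, related families share sites and a read that matches several transcripts counts at each. The value rose to 0.50 over the 60 sequences with at least 20 reads. Neither library gives the level of the uncut transcripts. Of the 50 families 25 had no cleavage row, and among the 25 with a row the correlation was 0.28.

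**Figure D3:**
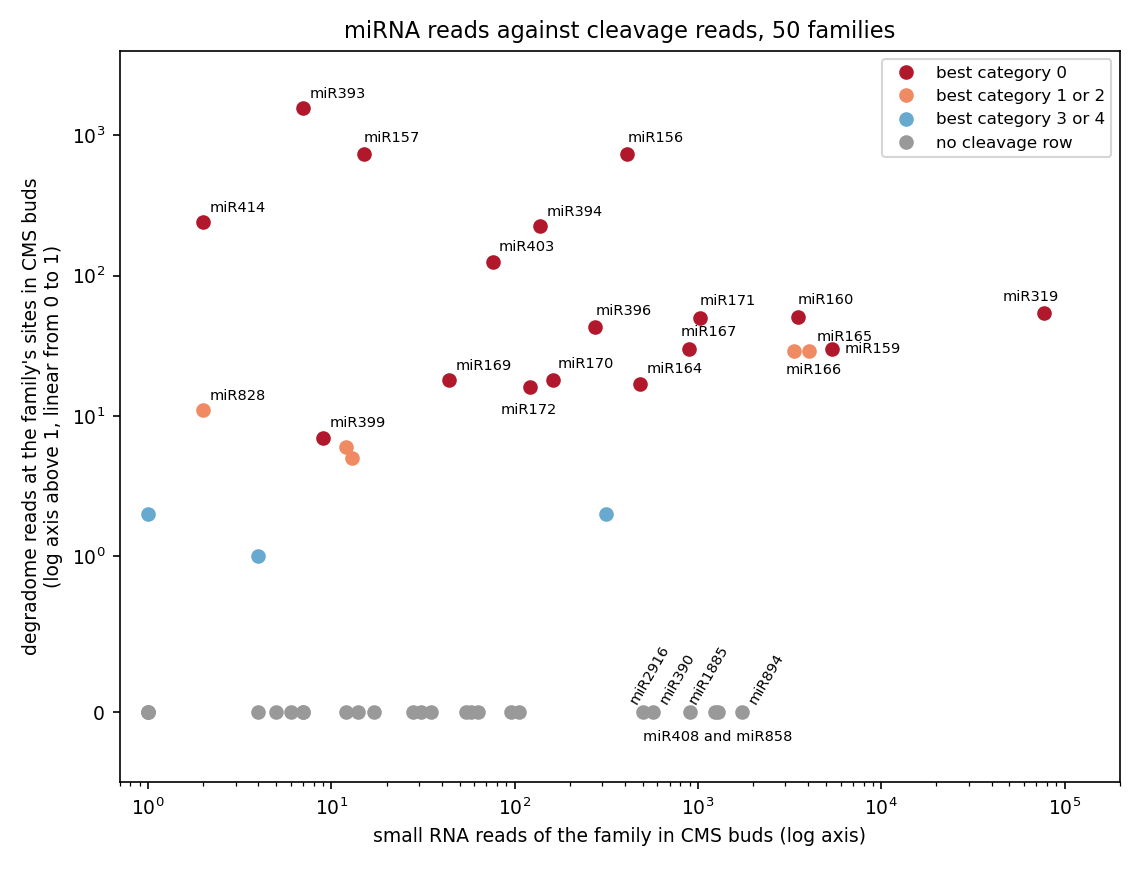
Small RNA reads of each family (horizontal log axis) against degradome reads at its sites (vertical axis, log above 1 and linear from 0 to 1) in CMS buds for the 50 families with a read, coloured by best category. miR393 sits at the top left with 7 and 1553 reads, miR319 at the right with 77612 and 54, and 25 families with no cleavage row lie at 0.

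Targets of the classes known for these families made up most of the cleavage. The classes were looked up in the deposited gene annotation, and 47 of the 59 category 0 to 2 pairs of families with a listed class fell in it, or 79.7% (67.2 to 89.0). At category 0 it was 31 of 32, or 96.9% (83.8 to 99.9). Of the 47 pairs, 35 had a deposited CleaveLand p under 0.05, and the 12 in category 2 did not. The 47 pairs came from 34 genes, since related families share genes. All 56 pairs inside the classes, whatever their category, held 3715 of the 4210 cleavage reads, or 88.2% (87.2 to 89.2). A shared site counts there for each family, and a shared read for each gene. The median was 6 reads a pair. Of the 26 families with a listed class and a small RNA read, 18 had a category 0 to 2 site in the class, and miR162, miR168, miR390, miR397, miR398, miR408, miR824 and miR858 had none.

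Among the auxin families miR393 had the largest sites of the data. Its targets TIR1 and the AFB genes encode the F-box proteins that bind auxin. AFB3 had 745 reads at its site, AFB2 had 724, TIR1 had 43 and AFB1 (annotated as GRH1) had 41, each in category 0. Many reads of AFB3 and AFB2 matched more than 1 transcript. With each read divided by the number of transcripts it matched, the deposited signal was 383 for AFB3, 362.5 for AFB2, 42.5 for TIR1 and 41 for AFB1. On that scale too AFB2 and AFB3 lay above TIR1 and AFB1, but the reads of AFB2 and AFB3 may be largely the same reads. How these reads divide between AFB2 and AFB3 is therefore not known. By raw count each of these genes had more reads than any miR319 target. The 7 small RNA reads behind these sites came from the sequence of miR393a and miR393b alone. miR160 had 3501 small RNA reads and 51 cleavage reads, all in ARF17, an auxin response factor. miR167 had sites in ARF8 with 24 reads in category 0 and 2 in category 2, and in ARF6 with 3 reads in category 2 and 1 in category 4, both auxin response factors known in Arabidopsis for maturation of stamens and gynoecium. The fourth auxin family, miR390, had 566 small RNA reads and no cleavage row. Auxin families together had 7 genes in category 0 to 2, all in their known class, and 1634 cleavage reads.

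The squamosa promoter binding (SPL) factors, regulators of phase change and flowering, followed. SPL11 had 357 reads in category 0 and 1 in category 4, and SPL10 had 356 in category 0 and 2 in category 2. The deposited signal of the transcript taken for each gene was 45 once reads were divided over the transcripts they matched. Each gene was listed with several transcripts, so 45 is not the signal of the whole gene. SPL5 had 7 reads and SPL4 had 3 in category 0. AT1G69170, annotated as squamosa promoter-binding protein-like, had 3 reads in category 0 and 2 in category 2, while SPL2 had 2 in category 2 and 1 in category 4. Every one of these 6 genes was assigned to miR156 and to miR157 at the same site, so the cleavage cannot be divided between the families.

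miR319 and miR159 shared their MYB targets. MYB65 had 20 reads in category 0 and MYB33 had 10 in category 1, at sites assigned to both families. Within miR319 they were assigned to the shifted miR319c variant, with 2859 small RNA reads, and not to the dominant miR319a/b sequence. These genes encode MYB factors needed for anther development in Arabidopsis. The 2 genes made up all 30 cleavage reads of miR159 and 30 of the 54 of miR319. Most of the rest of miR319 was in TCP factors, which restrain cell proliferation in growing organs. TCP4 had 11 reads, TCP3 had 4 and TCP10 had 3 in category 0, and TCP24 had 2 in category 1. TCP4 and TCP24 each had 1 more read at a neighbouring category 4 site. A further site in TCP2 had 1 read. The last read was at a category 4 site in AT3G57990, assigned to the other arm MIR319b-p5. The highest TCP count, 12 reads over both sites of TCP4, stood against 77612 small RNA reads of the family.

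The HD-ZIP III factors, which set adaxial identity and vascular pattern, had sites assigned to both miR165 and miR166. REV (REVOLUTA) had 12 reads, PHV (PHAVOLUTA) 6, ATHB15 5 and ATHB8 4. All of these were in category 2, and none had a deposited CleaveLand p under 0.05 (0.0827 to 0.134). PHB (PHABULOSA) was in category 3 with 2 reads, with a CleaveLand p of 0.0264 for miR165 and 0.0238 for miR166. Of the 5 most abundant families, miR165 and miR166 were those without a category 0 site. Sites of miR171 were found in HAM1 and HAM2, GRAS factors that maintain the shoot meristem. HAM1 had 24 reads in category 0 and 1 in category 4, and HAM2 had 16 in category 0 and 8 in category 2. HAM3 had 1 read. miR164 cut CUC1, a NAC factor of organ boundaries, with 15 reads in category 0, and 2 other NAC genes had 1 read each. miR172 had AP2, a floral organ identity factor, with 10 reads and its relative TOE2 with 2, both in category 0. miR169 had NF-YA9 with 8 reads in category 0 and NF-YA2 with 5 in category 2, both subunits of the CCAAT-binding nuclear factor Y. miR396 had 1 site in its known class, GRF1, a growth-regulating factor, with 4 reads in category 0. Over the list of floral and organ identity families, 12 of 13 had a category 0 to 2 site, the exception being miR858, against 22 of 50 (44%) of all families read. The list was drawn up from families whose targets are known, so its count is not independent of that knowledge.

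Outside the transcription factors and auxin genes, miR394 had 225 reads in category 0 in AT1G27340, annotated as a kelch repeat protein. miR403 had 126 reads in AGO2, an Argonaute, also in category 0. By raw reads AFB3, AFB2, SPL11 and SPL10 were higher than these 2 genes. The signal was 225 in AT1G27340 and 126 in AGO2. The signal of 45 for SPL11 and for SPL10 is that of 1 of several transcripts listed for each gene. It can therefore not be ranked against these values. miR395 had APS1, an ATP sulfurylase of sulfate assimilation, with 5 reads in category 1. miR828 had 11 reads in category 1 in AT3G25795, annotated only as other RNA, from a family with 2 small RNA reads. miR172 was also assigned to ELF7, a gene outside its class, and to MIR172E, the transcript of a miR172 hairpin, with 2 reads each.

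**Figure D4:**
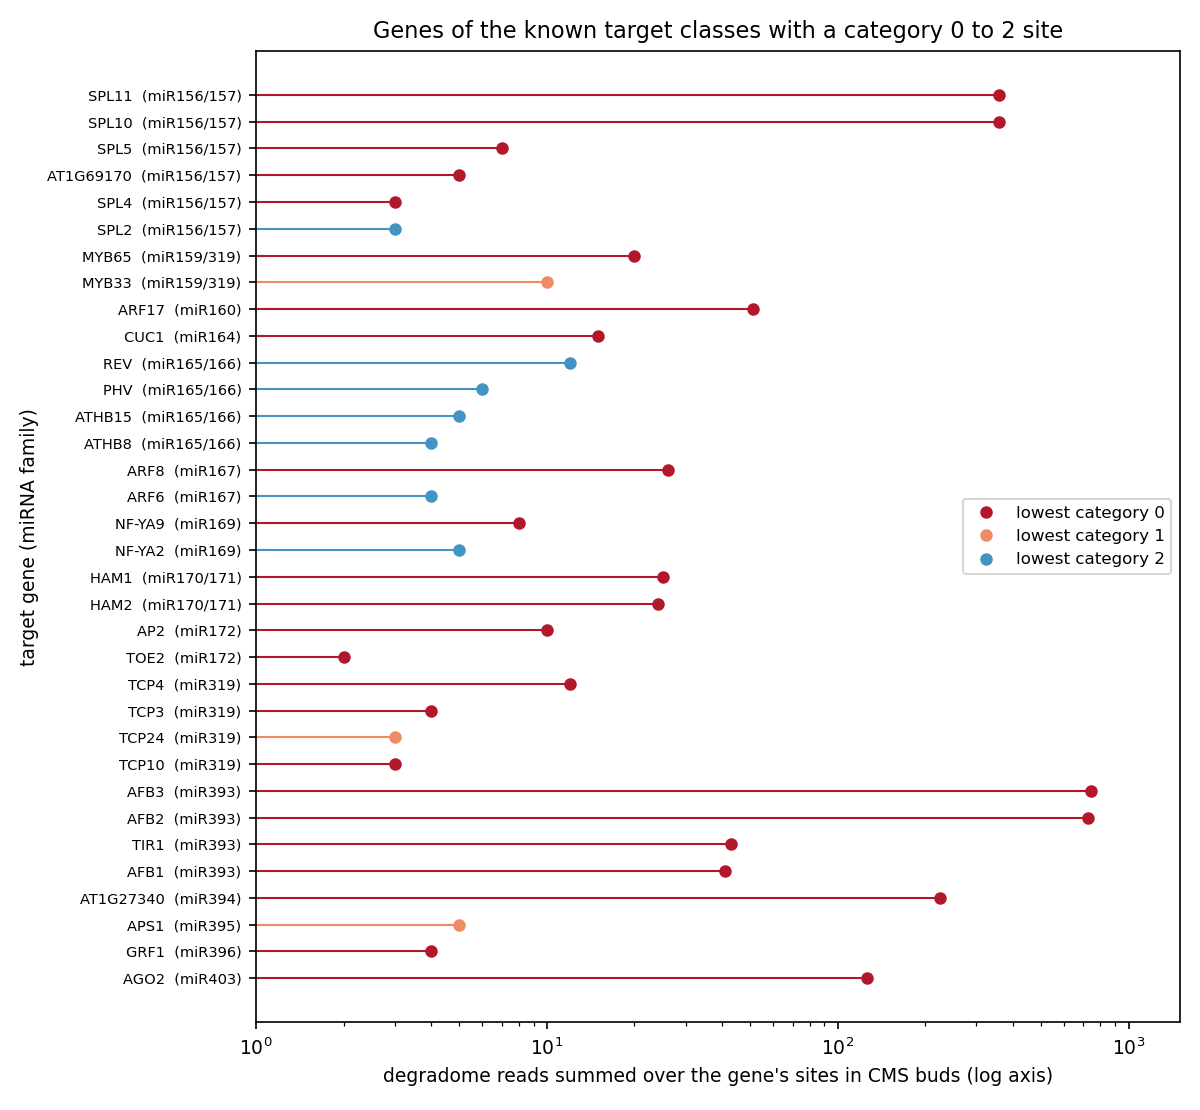
Degradome reads in CMS buds (horizontal log axis), summed over the sites of each of the 34 genes in the known target classes with a category 0 to 2 site, coloured by the lowest category of those sites, with each gene's family in brackets and related families that share the site joined. AFB3 and AFB2 lead with 745 and 724 reads, SPL11, SPL10, AT1G27340 and AGO2 follow with 126 to 358, and the remaining genes have at most 51. The counts of AFB3 and AFB2, and those of SPL11 and SPL10, may be largely of the same reads.

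Neighbouring cleavage sites allowed the level of near relatives to be set against cleavage on 1 transcript. In 11 genes of the known classes, guides that start at a different base of the target were assigned to sites 1 or 3 bases apart. Members with the higher small RNA count had the higher cleavage count in 6 of the 11 genes and the lower one in 5. These genes were picked out after their values were seen, and counts at many of the sites were of 1 to 3 reads. In SPL11 the site of miR156a to f, to which miR156g to j and miR157d were also assigned, had 357 reads. The site 1 base downstream, assigned to miR157a to c and to the longer forms of miR156h and miR157d, had 1. The small RNA reads stood the other way, with 4 for the first set and 45 for the second. These sums cover only 2 sequences per site, since the other assigned names had no small RNA value. SPL10 gave 356 and 2 reads, which may be largely the same reads, whereas SPL2 gave 2 and 1 and AT1G69170 gave 2 and 3. In HAM1 the site of miR171b/c had 24 reads and the site 3 bases downstream, that of miR171a and miR170, had 1, against 8 and 1078 small RNA reads. HAM2 showed the other order, with 8 reads at the miR171b/c site and 16 at the miR171a site. The abundant member led in ARF8, where the site of miR167a/b and a miR167d variant had 24 reads and that of miR167c had 2. The small RNA reads were 812 for miR167a/b with the variant and 5 for miR167c. The abundant member also led in TCP4, where the site of the main miR319 sequences had 11 reads and that of the shifted miR319c variant had 1. Their small RNA reads were 74578 and 2859.

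**Figure D5:**
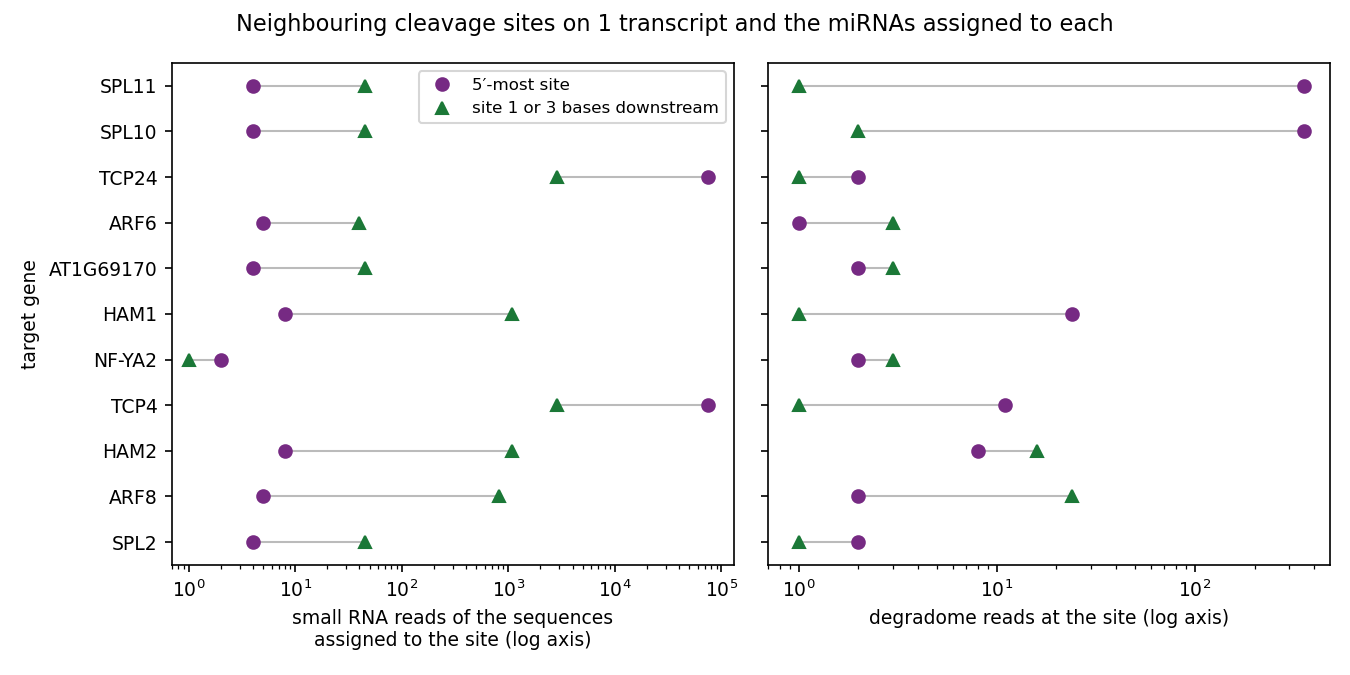
Small RNA reads of the sequences assigned to each site (left, log axis) and degradome reads at the site (right, log axis) for 11 genes with a pair of neighbouring sites on 1 transcript in CMS buds. In SPL11, SPL10 and HAM1 the upstream site (circles) has 357, 356 and 24 reads although its miRNAs have 4, 4 and 8, and in ARF8 and HAM2 the downstream site (triangles) leads on both sides.

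Sites assigned to other arms differed from those of guides. Guides had 113 pairs of family and gene, 65 of them in category 0 to 2, with at most 745 reads, and 42 had a deposited CleaveLand p under 0.05. Other arms had 135 pairs, 48 in category 0 to 2, with at most 71 reads, and 1 had a p under 0.05. That pair was MIR172c-p5 with ELF7. Most other-arm pairs came from sequences with few or no small RNA reads: MIR5641-p5 had 51 genes and no small RNA read, MIR414-p5 had 41 and 2 reads, a variant of osa-MIR396h-p5 had 21 and none, and pab-MIR947-p3 had 12 and none. MIR414-p5 is a run of TCA repeats with 1 base changed, and the other sequences named here are only 15 bases long. The contrast with guides rests largely on these sequences. The p3 arms of MIR156b and MIR168a, with 358 small RNA reads and 0.154% of the miRNA reads, had no cleavage row. Over miR414, MIR5641 and MIR947 together, 38 of 120 pairs were in category 0 to 2 and none had a p under 0.05. The largest of them was TUA2, a tubulin gene, with 71 reads in category 2, and the leading gene with a category 0 site was NAP1;2, a nucleosome assembly gene, with 10 reads at that site and 3 at a category 2 site for miR414. The variant of osa-MIR396h-p5 accounted for the 9 category 0 to 2 genes of miR396 outside its class. Likewise miR399 had its leading site, in GTL1 with 4 reads in category 0, from an other-arm sequence with no small RNA read.

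Of the 39 families with a cleavage row, 14 had no read in the CMS small RNA library, and 11 of these were not listed in the miRNA table. Their counts were small next to those of miR393 or miR156, with MIR5641 at 84 cleavage reads, MIR947 at 40 and miR5650 at 19, and sites in category 0 were found for MIR5641, MIR947 and miR841. Among these, AT1G11440 and AT4G31460, a ribosomal L28 protein gene, had 3 reads each for MIR5641, and PTAC6, AT5G24260 and AT2G43190 had 2 each for MIR947 and miR841. New candidates had 37 pairs, 12 in category 0 to 2, the largest with 27 reads in the elongation factor Tu genes AT1G07920, AT1G07930, AT1G07940 and AT5G60390, each with that count. With reads divided over the transcripts they matched, the signal was 3.36 in each of these genes, so their counts may be largely the same reads. Their candidate, PC-3p-41, had 1 small RNA read, and the deposited CleaveLand p was 0.331. The only category 0 site of the candidates was in CINV2, a cytosolic invertase, with 6 reads.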

How the data were processed

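Small RNA and degradome reads of pooled CMS floral buds, 1 library each, were used. Per the sources used here, the authors trimmed the small RNA reads, compared them with miRBase 18.0 plant miRNAs and the TAIR10 Arabidopsis genome, and deposited raw read counts per mature sequence. For the degradome the authors ran CleaveLand 3.0 on Arabidopsis cDNA and deposited, per miRNA name and site, a raw read count, a signal (reads divided by the number of transcripts they match), an alignment score, a category score and a p-value. Columns of the authors' comparison between lines were not used.

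Identical mature sequences were joined and counted once, and families were summed by the number after miR. Cleavage rows were joined by name. For each family and gene the transcript with most reads was taken, its distinct sites were summed and genes were added. No test was run, since there was 1 library per assay. Shares have exact binomial intervals, and Spearman's rank correlation is descriptive. Between settings a correlation within 0.1, a count within 1.5 times or a share inside the interval was held to be the same. The functions were tested on simulated data. The deposited p served only as a filter at 0.05.

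Named were the 20 most abundant sequences, families with at least 100 reads, hairpins whose other arm reached the guide or 20 reads, up to 3 genes per abundant family with the known class first, the 10 genes with most cleavage reads and, for rarer families, the leading category 0 gene. Other items, the further SPL, TCP, HD-ZIP III and NAC genes, miR828, miR395 and the neighbouring sites among them, were chosen after their values were seen. Members, lists and target classes were chosen with earlier results of these data known. The 1 miRNA entry without a value was not analysed here. Python 3.11.15, pandas 2.3.3, scipy 1.17.1 and matplotlib 3.10.9 were used.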

Additional observations from a re-analysis of the deposited data

How the results depend on the processing

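The share of the leading sequence was 70.0% with every entry counted without joining and 72.1% with entries resembling ribosomal or transfer RNA left out, against 70.5%, and that of the 10 leading families was 97.0% without joining and 85.3% without miR319, against 95.3%. The guide share of 99.3% fell to 98.6% with each sequence counted once, 96.9% without miR319 and 94.4% with both changes. At a minimum of 500 reads 7 of 13 families had a category 0 to 2 site, fewer because fewer families were counted. The rank correlation over families was 0.40 with sites of p under 0.05, against 0.27, and ran from 0.22 to 0.35 under the other settings. Over sequences it was 0.38 with that filter and 0.50 with at least 20 reads, against 0.25, and the cause was not tested. The 109 family and gene pairs became 41 at category 0, 38 with p under 0.05 and, to 2 digits, 1.6e+02 with transcripts counted separately. The share in the known class, 79.7%, was 96.9% at category 0, 94.6% with p under 0.05 and 66.7% over categories 0 to 4. With all deposited rows summed, so that a site counts for each name and transcript, the 10 leading families held 2.95% of cleavage reads against 5.77%. No direction turned. The joining of families that share sites, the guide-only values and the counting of each sequence once were chosen after seeing the data. No paired analysis was possible because each assay had 1 CMS library and nothing was compared between groups. At this depth a count of 0 allows up to 3 reads, and leaving out a replicate could not be tried.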
